A study of Mus musculus with 20 samples.

Results

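In the mouse mammary epithelial line Comma-Dβ, 3448 H3K4me3 peaks lay far from every protein-coding gene end while overlapping H3K27ac. They are called far peaks below. A far peak was on an autosome, was narrower than 5000 bp, overlapped an H3K27ac peak by at least 1 bp, and lay more than 5 kb from both ends of every protein-coding gene of RefSeq GRCm38.p6, a patch release of the mm10 assembly. They made up 20.8% of the 16562 autosomal H3K4me3 peaks and 26.5% of the 12995 that were narrow and acetylated. They were chosen by the H3K4me3 and H3K27ac peak calls, so their values for these marks are given as a description. The remaining 9547 narrow acetylated peaks, within 5 kb of a coding end, are called near peaks and serve as the comparison. A further 1215 narrow peaks were equally far from coding ends but overlapped no H3K27ac peak.

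The study profiled chromatin by ChIP-seq in 20 samples of the line at passage 28, with 4 replicates each for antibodies to HEB, H3K4me3, H3K27ac and H3K27me3 and for input chromatin. All groups came from the same line, grown in medium with serum, insulin and epidermal growth factor, and the labels give no treatment and no genetic change. Each antibody has 1 peak list for its 4 replicates, so no value below has a spread between samples, no test between conditions was possible, and every 95% interval covers counting error only. Read depth per sample is unknown. As a check of the labelled cell type, 10 of 11 mammary epithelial marker genes had both H3K4me3 and H3K27ac within 1 kb of a gene end, with Trp63 as the exception. Of the 7 stromal fibroblast markers, 4 had H3K4me3 and 5 had H3K27ac there, and of the 4 neuronal markers 2 had H3K4me3 and none had H3K27ac. Among endothelial, immune and adipocyte markers, 1 of 5, 2 of 6 and 1 of 4 had H3K4me3, and the same numbers had H3K27ac. The genes behind these equal numbers differed, and only the immune marker Cd68 had both marks.

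H3K4me3 is the mark of nucleosomes around transcription starts, above all at CpG-rich promoters, and H3K27ac marks active promoters and active enhancers. Many genes use more than 1 promoter, and an alternative promoter can lie deep inside the gene, where it gives a shorter transcript. Long noncoding RNAs and the primary transcripts of microRNAs have promoters of their own that need not lie near a coding gene. Enhancers carry mainly H3K4me1 and may also show weak H3K4me3. HEB, the E protein encoded by Tcf12, is a basic helix-loop-helix factor that binds the E-box, and H3K27me3 is the Polycomb mark of silenced genes.

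The start windows overlapped by far peaks ran from CpG-dense to CpG-poor, and 6 RefSeq windows of GRCm38.p6 are printed to show both kinds. Each window holds the 250 bases before and the 50 bases after an annotated start, reads 5′ to 3′ on the strand of the gene, and has its CG dinucleotides in capitals. A peak is said to cover, or lie over, a RefSeq start where it overlaps the window of that start by at least 1 bp. The peak at Mir205hg ends at chr1:193510202, so it overlaps only the part of its window after the start. Dancr and Mirc35hg are noncoding genes with strong, CpG-rich starts, Mir205hg is a noncoding gene with a CpG-poor start, Runx3 and Ablim1 are starts inside coding genes of either kind, and Bmf is an internal start whose peak also overlapped a HEB site. The windows lie at chr5:74092810-74093109 on the plus strand (Dancr), chr6:30174076-30174375 on the minus strand (Mirc35hg), chr1:193510161-193510460 on the minus strand (Mir205hg), chr4:135152295-135152594 on the plus strand (Runx3), chr19:57197582-57197881 on the minus strand (Ablim1) and chr2:118544538-118544837 on the minus strand (Bmf).
Dancr: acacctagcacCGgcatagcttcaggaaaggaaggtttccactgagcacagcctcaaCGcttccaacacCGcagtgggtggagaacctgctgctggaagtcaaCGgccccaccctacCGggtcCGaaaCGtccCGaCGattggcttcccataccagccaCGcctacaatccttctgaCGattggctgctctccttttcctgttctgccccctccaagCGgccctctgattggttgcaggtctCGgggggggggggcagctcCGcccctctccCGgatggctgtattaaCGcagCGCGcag
Mirc35hg: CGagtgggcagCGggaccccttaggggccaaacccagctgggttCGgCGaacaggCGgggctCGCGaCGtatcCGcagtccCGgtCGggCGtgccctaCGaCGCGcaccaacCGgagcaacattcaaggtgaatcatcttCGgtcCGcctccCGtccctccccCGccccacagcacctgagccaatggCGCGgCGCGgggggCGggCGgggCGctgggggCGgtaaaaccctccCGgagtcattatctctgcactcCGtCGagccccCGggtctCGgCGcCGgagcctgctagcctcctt
Mir205hg: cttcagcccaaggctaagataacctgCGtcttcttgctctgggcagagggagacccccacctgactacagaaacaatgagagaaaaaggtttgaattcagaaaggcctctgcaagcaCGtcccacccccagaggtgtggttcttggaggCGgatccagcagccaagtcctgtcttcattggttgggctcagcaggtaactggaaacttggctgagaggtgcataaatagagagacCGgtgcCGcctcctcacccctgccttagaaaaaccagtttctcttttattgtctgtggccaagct
Runx3: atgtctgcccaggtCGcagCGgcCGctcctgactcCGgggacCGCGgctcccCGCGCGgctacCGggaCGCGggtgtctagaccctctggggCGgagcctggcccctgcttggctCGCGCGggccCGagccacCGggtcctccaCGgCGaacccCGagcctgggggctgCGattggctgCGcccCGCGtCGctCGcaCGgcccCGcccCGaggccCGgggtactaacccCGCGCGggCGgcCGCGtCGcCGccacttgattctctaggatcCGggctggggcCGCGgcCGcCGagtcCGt
Ablim1: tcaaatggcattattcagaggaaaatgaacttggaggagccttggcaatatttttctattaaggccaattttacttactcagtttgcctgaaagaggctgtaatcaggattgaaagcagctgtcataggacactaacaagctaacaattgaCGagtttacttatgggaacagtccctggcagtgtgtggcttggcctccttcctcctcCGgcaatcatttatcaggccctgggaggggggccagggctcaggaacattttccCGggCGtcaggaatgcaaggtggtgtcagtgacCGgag
Bmf: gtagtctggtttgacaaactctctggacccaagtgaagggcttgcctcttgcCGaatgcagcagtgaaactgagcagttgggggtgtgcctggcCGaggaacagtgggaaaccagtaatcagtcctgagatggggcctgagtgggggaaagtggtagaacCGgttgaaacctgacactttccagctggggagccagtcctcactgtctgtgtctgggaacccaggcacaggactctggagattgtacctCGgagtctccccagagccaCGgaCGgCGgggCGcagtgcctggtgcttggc

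The Mirc35hg window held 35 CG dinucleotides in 300 bases, and the Runx3 window held 45. Dancr had 18 and Bmf 8, against 5 each at Mir205hg and Ablim1. The far peaks over these windows had H3K4me3 folds of 41.3 at Mirc35hg, 39.2 at Dancr, 30.8 at Runx3, 7.73 at Mir205hg, 5.29 at Ablim1 and 3.43 at Bmf. In these 6 examples the 3 windows richest in CG lay in the 3 strongest peaks. They were picked after their values were seen, to show both kinds.

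Most far peaks were weak, with a long tail of strong ones. Their H3K4me3 fold enrichment, the authors' value for each peak, had a median of 3.19 (interval 3.091 to 3.295), with quartiles of 2.27 and 7.89 and a maximum of 51.1. Near peaks had a median of 20.7, with quartiles of 13.6 and 28.2. A fold of 10 or more was reached by 729 far peaks (21.1%) and by 84.2% of near peaks. Far peaks were also narrower, with a median width of 859 bp and quartiles of 476 and 1579 bp, against a median of 2214 bp for near peaks. H3K27ac hardly separated them, since the acetylation peak over far peaks had a median fold of 4.17 and that over near peaks 4.25. Of the far peaks, 69.5% had a −log10 q of at least 5. The far peaks without H3K27ac had a median H3K4me3 fold of 2.88, and 3.95% of them reached a fold of 10.

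**Figure D1:**
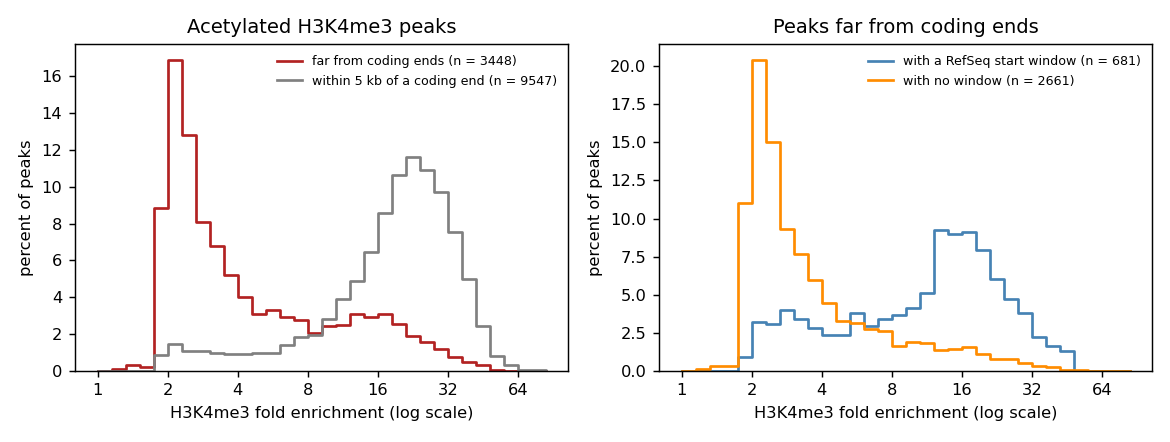
H3K4me3 fold enrichment (log axis) against the percent of peaks per bin. Left, 3448 far peaks and 9547 near peaks; right, the 681 far peaks that overlap a RefSeq start window and the 2661 that do not. Far peaks pile up around a fold of 2 to 3 with a shoulder above 8, and peaks above a fold of 10 include 421 with a start window and 284 without.

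Far peaks over annotated starts were stronger and wider than the others. RefSeq start windows were available for the 18 autosomes other than chromosome 18, which holds 106 far peaks. Of the other 3342 far peaks, 681 (20.4%, interval 19.02 to 21.78) overlapped at least 1 window, against 7131 of 9297 near peaks (76.7%). The distance limit largely fixes this contrast, because windows at the ends of coding genes can count only for near peaks. The 681 peaks with a window had a median H3K4me3 fold of 13.2 and a median width of 1959 bp, against 2.73 and 701 bp for the 2661 without one. A fold of 10 or more was reached by 61.8% of the far peaks with a window and by 10.7% of those without. Their H3K27ac folds were close, at medians of 3.98 with a window and 4.22 without. Windows of coding genes were found in 451 far peaks, windows of noncoding genes in 274, and windows on both strands in 56. The window table is incomplete, so a peak without a window may still cover a start. Of the 705 far peaks with a fold of 10 or more on these chromosomes, 284 (40.3%) had no window, among them the strongest of all, in Metap2.

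By position, far peaks fell into 4 classes. Peaks inside a coding gene only numbered 1635 (47.4%), peaks at a noncoding gene only 349 (10.1%), peaks that were both 190 (5.51%), and peaks that were neither 1274 (36.9%). Inside means that the midpoint lay between the outer ends of a coding gene, and at a noncoding gene means within 1 kb of either end of one. In all, 1825 far peaks lay inside a coding gene (52.9%, interval 51.2 to 54.6) and 539 at a noncoding gene (15.6%, 14.4 to 16.9). The class that was both had the strongest H3K4me3, with a median fold of 9.36, followed by noncoding only at 5.14, inside only at 3.28 and neither at 2.72. The median distance to the nearest coding end was 25.8 kb, with quartiles of 11.9 and 61.1 kb and a maximum of 1794 kb. Within 10 kb of a coding end lay 691 far peaks (20.04%), and beyond 50 kb lay 1053 (30.5%).

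Inside coding genes, 392 of the 1583 inside-only peaks on chromosomes with windows overlapped a RefSeq start (24.8%), and these were strong and wide. Their median H3K4me3 fold was 14.0, against 2.64 for the 1191 without a window. The median width was 2077 bp with a window and 749 bp without. The order was the other way for H3K27ac, with median folds of 3.88 and 4.37. The strongest inside-only peak of all lay in Metap2, a methionine aminopeptidase gene, at chr10:93887610-93890655 with an H3K4me3 fold of 51.1. Ccdc174 followed with 47.3, Tank, which encodes an adaptor of TRAF signalling, with 44.4, Cnot8, a deadenylase subunit of the CCR4-NOT complex, with 42.7, and Asb8 with 41.5. Rreb1, a zinc finger transcription factor, had 41.1, Hexim2, an inhibitor of P-TEFb, 38.7, Gmps, the GMP synthetase gene, 38.6, Stim1, the calcium sensor of the endoplasmic reticulum, 38.3, and Baz2a, a subunit of the nucleolar remodelling complex, 37.8. Several of these are close to the distance limit, with Baz2a 5.07 kb, Stim1 5.41 kb, Hexim2 6.16 kb and Metap2 6.44 kb from the nearest coding end. The gene ends used here are the outermost ends of all RefSeq transcripts of a gene, so a start of most transcripts can count as internal where 1 transcript begins farther out.

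Genes with several internal peaks were long. A far peak lay inside 1354 of 20665 autosomal coding genes (6.55%), of which 1052 held 1, 197 held 2 and 105 (0.508%) held 3 or more. The median length was 95.6 kb for genes that held a far peak, 216 kb for those with 3 or more, and 17.5 kb for all coding genes. By length, 0.523% of coding genes under 20 kb held one, 8.89% of those of 20 to 100 kb, 26.8% of those of 100 to 300 kb and 32.5% of longer genes. A gene under 10 kb cannot hold a far peak, because no point in it is more than 5 kb from both ends.

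Pde4d, a cAMP phosphodiesterase gene known for its many promoters, held the most, with 11 far peaks over its 1302 kb. The 4 strongest were at chr13:109259823-109262280 with an H3K4me3 fold of 15.5, at chr13:109902215-109904628 with 12.0, at chr13:109685179-109687347 with 11.5 and at chr13:109440003-109441899 with 6.76. They lay 607, 1249, 1032 and 787 kb from the outer 5′ end of the gene. The other 7 had folds of 1.96 to 3.82, and all 11 lay in the part of the gene beyond 575 kb. No HEB site and no H3K27me3 peak overlapped any of the 11. Over all far peaks these shares were also low, at 2.78% and 5.02%, so 11 peaks are too few to set Pde4d apart.

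Ablim1, which encodes an actin-binding LIM protein, held 7 far peaks with folds of 1.93 to 5.96. The 3 strongest, at 5.96, 5.71 and 5.29, each covered a RefSeq start of Ablim1 itself. Zfhx3, a homeobox and zinc finger factor gene, also held 7, the strongest at 13.8. Dst, the gene of the cytoskeletal linker dystonin, held 6, and its strongest at chr1:34010824-34013225 had a fold of 13.7 and covered a Dst start. A second Dst peak with a fold of 12.1 lay at chr1:34005697-34007154 without a window. Aff1, which encodes a scaffold of the super elongation complex, held 6 with a maximum of 18.6, and Maml3, a Notch coactivator gene, held 6 with folds of 2.59 to 5.65. Arhgap23, Arid5b, Chd9 and Dlgap1 held 5 each, with highest folds of 28.3, 6.17, 22.7 and 5.17.

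**Figure D2:**
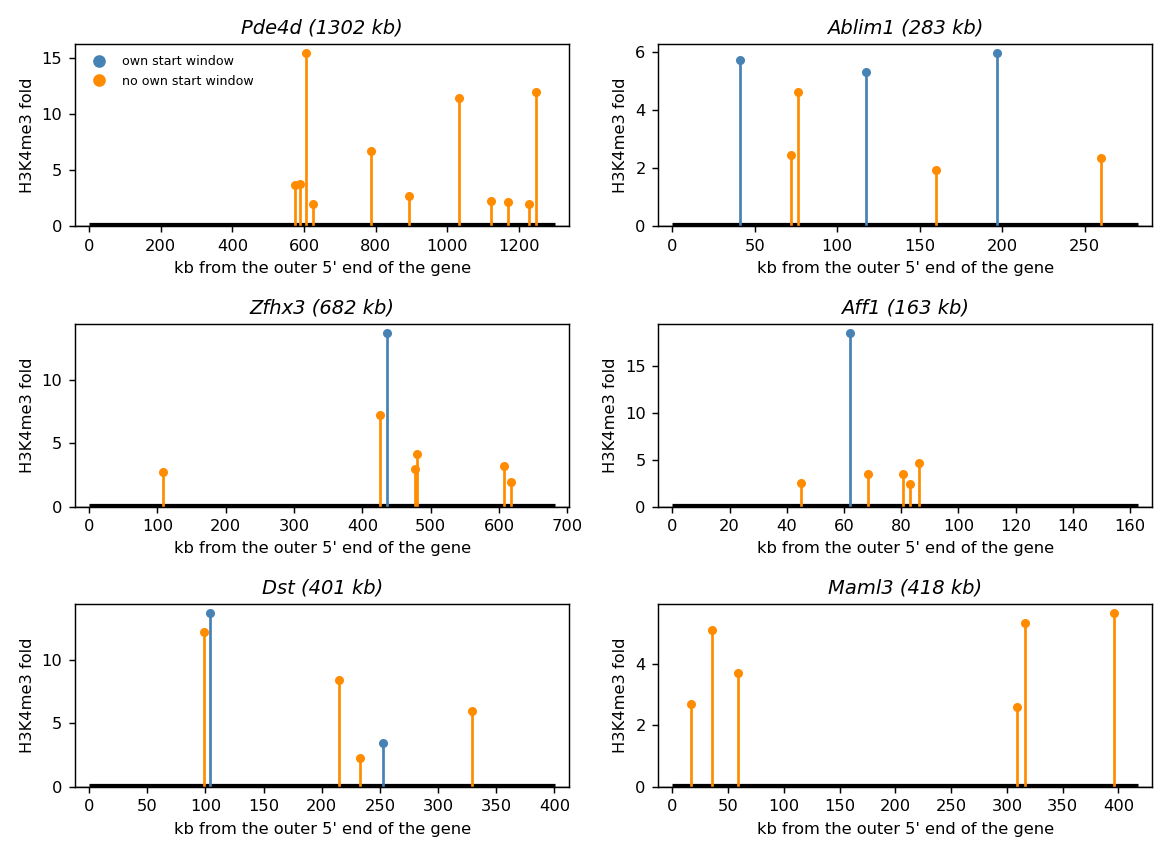
H3K4me3 fold of each far peak (y axis) against its distance from the outer 5′ end of the host gene (x axis, kb) for the 6 coding genes with the most far peaks. Blue marks peaks over a RefSeq start of the host and orange peaks without one; in Ablim1, Zfhx3, Aff1 and Dst the strongest peak has a window, and in Pde4d and Maml3 no peak has one.

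Along host genes the peaks were spread widely and thinned out toward the 3′ end. For 1449 far peaks in a single host of known strand, 20.4% lay in the first 20% of the gene length, 27.8% in the next 20%, then 22.8%, 18.5% and 10.5%. Among the 448 that covered a start of their host, 2.90% lay in the last 20% (interval 1.55 to 4.91), against 13.9% (11.8 to 16.2) of the 1001 without one. The rule keeps peaks at least 5 kb from either end, which removes part of the first and the last bin.

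**Figure D3:**
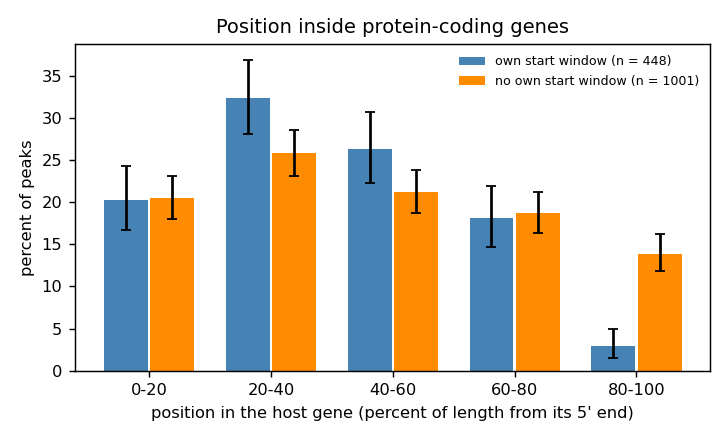
Percent of far peaks by position in the host gene, in steps of 20% of gene length from the 5′ end. Bars are the 448 peaks over a RefSeq start of the host and the 1001 without one, with exact binomial 95% intervals; the last step holds 2.90% of the first kind and 13.9% of the second.

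Genes known for alternative or internal promoters often held a far peak. Of 44 such genes, 28 did (63.6%, interval 47.8 to 77.6), where the background over all autosomal coding genes was 6.55%. The listed genes are long, with a median of 219 kb, and coding genes of the same length bins held one in 22.7%. The list was put together with earlier results of these data known, so the share describes the list. Trp63, the basal epithelial regulator known for full-length and ΔN promoters, had neither mark within 1 kb of a gene end and held 1 internal far peak, at chr16:25801954-25805168, of 3215 bp with an H3K4me3 fold of 4.31 and an H3K27ac fold of 3.42. Dlc1, a RhoGAP gene, had a peak of 34.2 at chr8:36610896-36614442. Runx3 had 30.8 at chr4:135151935-135154958, Nrg1, the neuregulin gene, 26.9 at chr8:32006107-32010255, Ppargc1a, a metabolic coactivator gene, 26.7, and Bdnf, the neurotrophin gene, 23.4 over 3 RefSeq starts. Plec, the gene of the cytolinker plectin with its many first exons, held 4 far peaks under a single H3K27ac peak of 23.5 kb, with folds of 2.32, 14.3, 9.55 and 12.8. The related linker gene Macf1 held 3 with folds of 3.03, 6.72 and 17.0. Gnas, the imprinted gene of the stimulatory G protein, held 1 with a fold of 13.5 that also overlapped H3K27me3. Tcf12, which encodes HEB, held none.

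Other gene lists, also made with earlier results known, are given by their counts beside the share of coding genes of the same length bins. Of 30 cytoskeleton and focal adhesion genes, 11 held a far peak (36.7%, interval 19.9 to 56.1, against 16.8% of genes in the same length bins). Pxn, the paxillin gene, held 4, the strongest with a fold of 18.6 at chr5:115506713-115510795 and another of 2.97 that overlapped HEB. Palld, the actin-bundling palladin, had a maximum of 20.7, Sptbn1, a spectrin, 13.6, and Tns3, a tensin, 12.2. Of 44 mammary and epithelial transcription factor genes, 12 held one (27.3%, 14.96 to 42.8, against 10.1%). Stat5b, a mediator of prolactin signalling, had a peak of 11.2 over one of its own starts, and Stat3, which acts in mammary involution, one of 7.03. Nfia held 5 with folds of 2.17 to 12.8, and Nfix held 5 with folds of 2.13 to 2.42 under 1 H3K27ac peak. Elf5, the alveolar regulator, had 1 of 2.30, and Runx1 and Runx2 had weak ones of 2.01 and 1.87. Of 30 Wnt and Notch genes, 8 held one (26.7%, 12.3 to 45.9, an interval that includes the 12.4% of its length bins), with Maml3 highest at 5.65 and 2 in Notch2 at 2.98 and 3.26. Of 26 TGF-beta and EGF signalling genes, 7 held one (26.9%, 11.6 to 47.8, against 11.5%), with Nrg1 at 26.9 ahead of Tgfbr3 at 4.23 and Egfr at 3.25. The Egfr peak of 3.25 lay over a start of Egfros, a noncoding gene on the minus strand.

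At noncoding genes, the nearest end belonged to a long noncoding RNA gene for 490 of the 539 far peaks, to a microRNA for 18, to a small nuclear RNA for 18 and to other types for the remaining 13. For 383 (71.1%) the nearest gene had only a provisional Gm or LOC symbol. Counted by gene, 4.17% of autosomal long noncoding RNA genes had a far peak within 1 kb of an end, 2.46% of microRNA genes and 0.933% of small nucleolar RNA genes. Of the 518 peaks at noncoding genes on chromosomes with windows, 282 covered a start and had a median H3K4me3 fold of 10.3, against 3.66 for the other 236.

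The strongest of them lay at Snhg20, a small nucleolar RNA host gene, at chr11:117076252-117078506 with an H3K4me3 fold of 47.8 and an H3K27ac fold of 9.03. AI506816 had 47.0, 2700038G22Rik 46.9, the Snhg15 start 46.2 and B930059L03Rik 45.4. A peak of 42.7 at Gm23851 also covered 2 starts of the coding gene Cops7a, in which it lay. Mirc35hg followed with 41.3, Gm34102 with 39.8, Dancr with 39.2 and the shared start region of Gm31356 and Gpam with 39.1. Gm31356 and Gpam, the gene of a glycerol-phosphate acyltransferase, have starts on opposite strands within that peak.

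Of 43 named long noncoding RNA genes found on autosomes, 17 had a far peak (39.5%, interval 24.98 to 55.59). The background over all 12408 autosomal long noncoding RNA genes was 4.17%. It includes genes with only Gm or LOC symbols, is not matched for length and leaves out Terc, which is typed as a telomerase RNA. The list was made with earlier results known. Beyond those above, the H3K4me3 fold was 35.0 at Oip5os1 (Cyrano), 34.8 at Snhg17, 27.5 at Snhg5, 24.6 at Pvt1, the neighbour of Myc, 17.8 at Dleu2, the host of miR-15a and miR-16-1, 10.6 at Mir99ahg, 9.40 at Mir17hg and 5.74 at Mir100hg. The imprinted RNAs of the list with a far peak had 19.2 at Kcnq1ot1, 16.6 at Airn and 10.6 at Peg13, and the Kcnq1ot1 peak overlapped H3K27me3. Terc, the telomerase RNA, had 10.5 and Norad 8.98. Neat1, the RNA of paraspeckles, had a weak H3K4me3 peak of 1.88 inside an H3K27ac peak of fold 10.2.

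Some microRNA genes of a list for epithelial cells and growth lay close to far peaks and others did not. Of 43 listed microRNA genes, 3 were within 1 kb of one (6.98%, interval 1.46 to 19.1, where all microRNA genes gave 2.46%), and 18 were within 10 kb (41.9%, interval 27.01 to 57.87, where the background was 7.83%). The other 25 were farther away, among them Mir200c and Mir141, the rest of the miR-200 family, both 232 kb from the nearest far peak, Mir203 at 498 kb, Mir34a at 69.8 kb, Mir29a at 23.9 kb, Mir31 at 18.4 kb and Mir21a at 16.1 kb. Peaks within 5 kb of a coding end are not far peaks, so a microRNA gene distant from far peaks may still lie close to another marked peak. This limit applies to the listed genes and to the background. Genes of a cluster share 1 peak, so these counts are not independent. Mature sequences from RefSeq GRCm38.p6 are printed for the clusters below, 5′ to 3′, with the seed (bases 2 to 8) in capitals, because the clusters differ in whether their members share a seed.
miR-200b-3p: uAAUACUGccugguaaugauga
miR-429-3p: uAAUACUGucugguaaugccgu
miR-200a-3p: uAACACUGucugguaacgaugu
miR-183-5p: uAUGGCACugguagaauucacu
miR-96-5p: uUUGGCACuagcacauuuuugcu
miR-182-5p: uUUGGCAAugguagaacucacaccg
miR-205-5p: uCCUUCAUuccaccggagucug
miR-17-5p: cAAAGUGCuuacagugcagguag
miR-20a-5p: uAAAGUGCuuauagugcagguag
miR-99a-5p: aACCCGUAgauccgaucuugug
let-7c-5p: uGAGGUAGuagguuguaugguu

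The miR-200b, miR-200a and miR-429 genes, known as guardians of the epithelial state through Zeb1 and Zeb2, lay on the minus strand of chromosome 4 at 1.69, 2.46 and 3.46 kb from a far peak. That peak, at chr4:156057444-156059821, had an H3K4me3 fold of 15.1 and an H3K27ac fold of 7.11 and lay on the 5′ side of the cluster. It also overlapped an H3K27me3 peak. In their seeds miR-200b-3p and miR-429-3p are the same, and miR-200a-3p is not. Mir183, Mir96 and Mir182, known from sensory and epithelial cells, lay 2.40, 2.59 and 6.15 kb from the peak of 41.3 over the Mirc35hg start at chr6:30172140-30176041. That peak also overlapped H3K27me3. The 3 mature forms printed for this cluster have 3 different seeds.

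Mir205, a microRNA of basal and stem-like mammary cells, lay inside a peak of 7.73 at chr1:193507295-193510202 with an H3K27ac fold of 6.55, 136.9 kb from any coding end. The peak of 9.40 at chr14:115040032-115044372 held Mir17, Mir18, Mir19a and Mir20a of the growth-promoting miR-17 cluster, and miR-17-5p and miR-20a-5p share their seed. Mir99a lay 0.792 kb and Mirlet7c-1 1.51 kb from a peak of 9.76 and 4933 bp at chr16:77593212-77598144, 476 kb from any coding end. Mir193a lay inside a peak of 15.1 that overlapped H3K27me3. Mir23a, Mir27a and Mir24-2 lay 3.80, 3.95 and 4.10 kb from a peak of 36.7 at chr8:84200102-84204720, which was covered by an H3K27ac peak of 21.6 kb. Mir155, a microRNA better known from immune cells, lay 9.34 kb from a peak of 16.2. Other listed genes within 10 kb lay by weaker peaks. Mir145a and Mir143 were 6.66 and 8.03 kb from a peak of 2.37, and Mir100 was 4.91 kb from one of 1.99. Mir196a-1 was 9.75 kb from a peak of 9.17 that overlapped H3K27me3. Outside the list, Mir6516 lay in the Snhg20 peak and Mir1904 in the Pde4d peak of 12.0, and the other strong peaks at microRNA genes were at Mir148a, a microRNA abundant in liver and milk, with 24.7, Mir1893 with 19.3, Mir1949 with 14.6, Mir760 with 14.1 and Mir7240 with 9.15.

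CpG-rich starts carried a far peak more often than CpG-poor ones, and both kinds were common among the starts in far peaks. A window was called CpG-rich at a CpG observed over expected of 0.6 or more and a GC content of 50% or more. Of 336 noncoding windows in far peaks, 129 (38.4%, interval 33.2 to 43.8) were CpG-rich, against 12.1% of all noncoding windows. For coding windows in far peaks it was 294 of 529 (55.6%, 51.2 to 59.9), against 77.0% of the coding windows in near peaks and 46.5% of all coding windows. Read the other way, 39.6% of CpG-rich noncoding windows far from coding ends lay in a far peak and 2.51% of the CpG-poor ones. For internal windows of coding genes the same shares were 59.3% and 15.4%. Windows in no H3K4me3 peak were CpG-rich in 6.94%.

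The letters TATAAA, searched on both strands, stood in 7.51% of the windows in far peaks, in 5.63% of those in near peaks and in 13.6% of all autosomal windows. CAGCTG, an E-box that reads the same on both strands, stood in 16.8% of windows in far peaks, 14.0% in near peaks and 16.3% of all. CANNTG, the general E-box that includes CAGCTG, stood in 69.6%, 60.3% and 72.2%. A match to letters is a description and not a bound site.

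**Figure D4:**
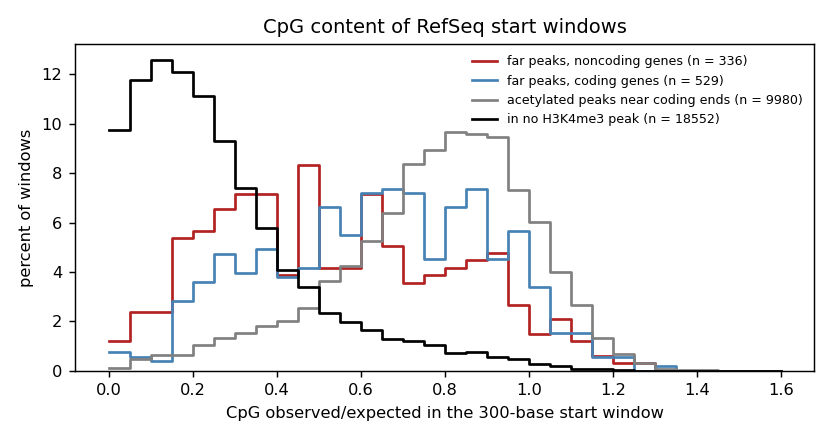
CpG observed over expected (x axis) in 300-base RefSeq start windows, as percent of windows per bin. The 336 noncoding and 529 coding windows in far peaks are spread between the 9980 windows in near peaks, which centre near 0.8, and the 18552 windows in no H3K4me3 peak, which centre near 0.2.

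Far peaks outside coding genes and away from noncoding ends were mostly weak. Of the 1274, 9.03% had an H3K4me3 fold of 10 or more, 218 overlapped the body of a noncoding gene, 39 lay within 1 kb of a pseudogene end and 452 lay beyond 50 kb from coding ends. Among the strongest were peaks of 40.3 at chr2:94177676-94179176, 19.8 kb from Hsd17b12, of 40.1 at chr6:128759951-128761642, 16.8 kb from Klrb1c, of 37.5 at chr11:61407356-61409285, 28.5 kb from Slc47a1, and of 35.7 at chr17:6475834-6477574, which overlapped H3K27me3.

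Before the HEB results, 2 stretches that bear on them are described. The 12 far peaks nearest the start of the chromosome 9 peak lists lay at chr9:3000121-3038209, with H3K4me3 folds of 1.60 to 2.99 and −log10 q of 13.3 to 1016. Of these 12, 6 overlapped HEB and 11 overlapped H3K27me3. A −log10 q of 100 or more at a fold under 5 occurred in 12 far peaks, of which 9 lay within 500 kb of the first or last peak of a chromosome, and in no near peak. On chromosome 8, 10 far peaks lay between 19 and 21 Mb. The 4 strongest, with folds of 44.4, 45.9, 32.2 and 35.5 and H3K27ac peaks of 0.70 to 0.99 kb, each overlapped HEB, and the other 6, with folds under 3, each overlapped H3K27me3. The overall HEB and H3K27me3 shares and the contrasts between classes are given with and without chromosome ends and the chromosome 8 stretch.

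HEB sites were found at a larger share of far peaks than of near peaks. Of the far peaks 96 (2.78%, interval 2.26 to 3.39) overlapped a HEB site, against 71 of the near peaks (0.744%, 0.581 to 0.937), where the background over all autosomal H3K4me3 peaks was 1.10%. The difference was 2.04 percentage points (Newcombe interval 1.51 to 2.66). Without peaks within 500 kb of chromosome ends and without the chromosome 8 stretch, the far share was 2.34% and the difference 1.60 points (1.10 to 2.19). The difference moved with H3K4me3 strength. At folds under 5, 3.20% of far peaks (interval 2.52 to 4.02) and 2.68% of near peaks (1.65 to 4.12) overlapped HEB. At folds of 20 or more it was 2.01% (0.655 to 4.62) and 0.455% (0.289 to 0.682). In both bins the intervals overlap. With near peaks weighted to the H3K4me3 folds of the far peaks the difference was 0.726 points, and with weighting to their widths it was 1.16 points. The difference of 2.04 points was thus much smaller once H3K4me3 strength or width was made alike, and the weighted differences have no interval. Of the 1215 far peaks without acetylation, 3 (0.247%) overlapped HEB.

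Within far peaks, HEB was less frequent where a start window was covered, and the share was higher under strong acetylation. The share was 3.77% (48 peaks) in the class that was neither, 2.87% (10) at noncoding genes only, 2.14% (35) inside only and 1.58% (3) in both, and inside only minus neither was −1.63 points (−2.96 to −0.398). Without chromosome ends and the chromosome 8 stretch, 32 peaks in neither (2.60%) and 34 inside only (2.10%) overlapped HEB, and that difference was −0.502 points (−1.71 to 0.612), an interval that includes 0. Far peaks with a start window overlapped HEB in 1.17% (8 of 681) and those without in 3.23% (86 of 2661), a difference of −2.06 points (−2.998 to −0.778) that was −1.50 points (−2.41 to −0.233) without those regions. Peaks with a window also had stronger H3K4me3 (median fold 13.2 against 2.73), and this contrast was not matched for strength. The HEB share of far peaks was 3.20%, 2.33%, 1.67% and 2.01% at H3K4me3 folds under 5, 5 to 10, 10 to 20 and 20 or more. At an H3K27ac fold of 8 or more 5.82% of far peaks overlapped HEB, against 1.80% of near peaks, and at folds under 3 it was 1.76% against 0.350%. Far peaks with HEB had a median H3K27ac fold of 5.44 and a median H3K4me3 fold of 2.58, against 4.15 and 3.21 for far peaks without HEB. The midpoints of HEB site and peak were a median of 214 bp apart in far peaks and 400 bp apart in near peaks, whose median widths with HEB were 1044 and 2050 bp; the width bounds this distance, so the distances were not compared. In all, 98 of 874 autosomal HEB sites (11.2%) lay in a far peak and 71 in a near peak.

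**Figure D5:**
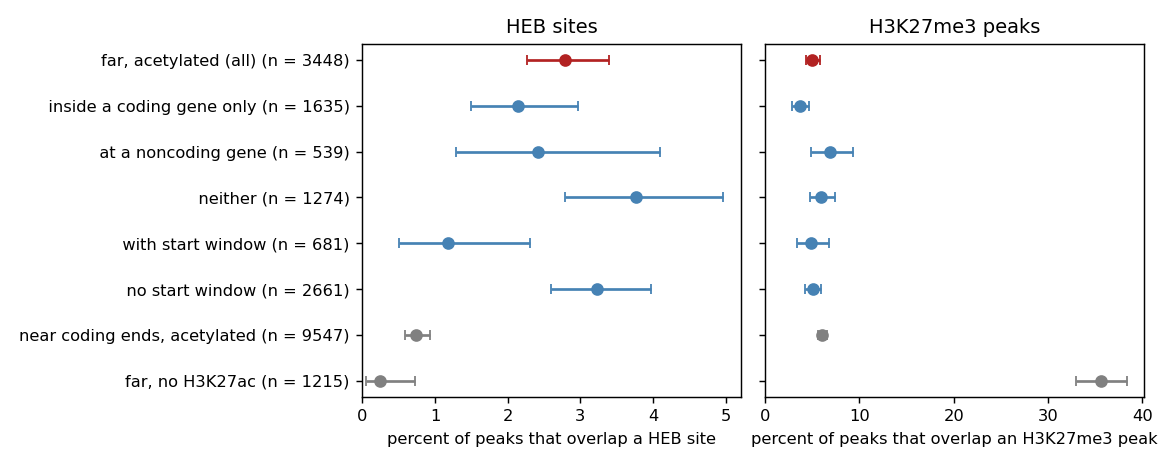
Percent of peaks that overlap a HEB site (left) and an H3K27me3 peak (right), with exact binomial 95% intervals that cover counting error only. Far peaks stand at 2.78% for HEB, above near peaks at 0.744% and far peaks without H3K27ac at 0.247%; for H3K27me3 the far peaks without H3K27ac stand apart at 35.6%.

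The 10 far peaks with HEB and the strongest H3K27ac lay mostly outside coding genes, and of all far peaks with HEB 39.6% lay inside one. The first, at chr12:69502328-69503709, had an H3K27ac fold of 13.0 and an H3K4me3 fold of 10.5, and lay 47.0 kb from any coding end. The second, at chr15:38469444-38471428, had 12.2 and 3.46 and lay 16 kb from Azin1, a regulator of polyamine synthesis. Others lay at chr3:41194113-41195374 with an H3K27ac fold of 10.8, in St3gal3, a sialyltransferase gene, with 10.1, 59.9 kb from Ank, a pyrophosphate transporter gene, with 10.1, at the noncoding gene Gm30701 with 9.61, and 44.9 kb from Med13l, a Mediator kinase module gene, with 9.53. Il34, a ligand of the CSF1 receptor, followed with 9.52, the Plec peak with 9.41, and a peak over Mir7671 and 5.73 kb from Irf1, an interferon regulatory factor gene, with 9.40. In Nfix 2 of the 5 far peaks overlapped HEB. Among the 8 HEB peaks that covered a start, Ptprs, a receptor phosphatase gene, had the strongest H3K4me3 at 17.8, and the Bmf peak, at the start of a proapoptotic BCL2 family gene, had 3.43. Of the 8 start windows in far peaks with HEB, 6 held CANNTG (75%, interval 34.9 to 96.8) and 3 held CAGCTG (37.5%, 8.52 to 75.5). Both intervals include the shares over all windows in far peaks, 69.6% and 16.8%. The Bmf window printed above holds CAGCTG.

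H3K27me3 overlapped 173 far peaks (5.02%, interval 4.31 to 5.80), against 577 near peaks (6.04%), where the background over all autosomal H3K4me3 peaks was 14.8%. The difference was −1.03 points (−1.87 to −0.121). The interval included 0 under 5 alternatives, with −0.880 (−1.78 to 0.108) at a distance limit of 10 kb, −0.409 (−1.41 to 0.699) for H3K4me3 peaks of −log10 q 5 or more, −0.492 (−1.25 to 0.351) for H3K27ac peaks of that q and −0.451 (−1.06 to 0.225) for H3K27me3 peaks of that q. It was −0.118 points (−0.881 to 0.716) where H3K27ac had to cover at least 50% of each peak, −1.79 points (−2.59 to −0.915) without chromosome ends and the chromosome 8 stretch, and −5.04 points with near peaks weighted to the H3K4me3 folds of the far peaks. Far peaks without H3K27ac overlapped H3K27me3 in 35.6%. Far peaks with H3K27me3 had weaker acetylation, with a median H3K27ac fold of 2.51, against 4.29 for those without. By class, the share was 10.5% (20 peaks) in both, 5.97% (76) in neither, 4.87% (17) at noncoding genes only and 3.67% (60) inside only. Without chromosome ends and the chromosome 8 stretch it was 10.2% in both and 4.23% in neither, a difference of 5.93 points (2.15 to 11.2), and 4.40% at noncoding genes only and 3.65% inside only. Named examples were Kcnq1ot1, Gnas, Mirc35hg, the peak beside Mir200b, Mir193a, Trp73 and 2 of the 5 peaks in Nfia. HEB and H3K27me3 were both present at 15 far peaks, of which 9 lay at chromosome ends as defined above. Without chromosome ends and the chromosome 8 stretch the H3K27me3 share was 4.30%.

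The H3K27ac peak over a far peak reached a coding end in 79 cases (2.29%), against 78.5% for near peaks, a contrast that the distance limit largely fixes. The 3448 far peaks sat in 3345 H3K27ac peaks, of which 3250 held 1, 88 held 2 and 7 held 3 or more. Chains with gaps of up to 5 kb joined 304 far peaks (8.82%) into 139 groups. Across autosomes, far peaks made up between 19.7% of the narrow acetylated peaks on chromosome 7 and 36.1% on chromosome 13.

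The widest far peaks lay in Vgll4 (4997 bp), a Hippo pathway cofactor gene, Rarg (4988 bp), a retinoic acid receptor gene, Lmna (4970 bp), the lamin A/C gene, Hnrnpf (4951 bp), a splicing factor gene, and Nav2 (4943 bp). Just outside the width limit were peaks of 5024, 5050 and 5056 bp, of which the last 2 lay in Zfp217 and Cald1. Just inside the distance limit lay peaks 5.00 kb from a coding end in Psma3 and 5.02 kb in Bmf, and just outside it peaks at 4.99, 4.99 and 4.98 kb.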

How the data were processed

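ChIP-seq of Comma-Dβ cells was analysed from 4 deposited peak lists, 1 per antibody, each standing for 4 replicates. Per the submitters' processing notes, coordinates are mm10 and SAMtools was used. The aligner, the peak caller, the control and how replicates were combined were not given in the sources used here. For each histone peak the authors deposited a fold enrichment, which is a ratio of ChIP over control, a −log10 p-value, a −log10 q-value and a score, of which the fold and the q-value were used. The deposited HEB list holds positions only, as a consensus with a minimum overlap of 2 by its name. Depth is unknown, so precision rests on the number of peaks.

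Positions were read as 1-based and overlaps counted from 1 bp. Genes and start windows came from RefSeq GRCm38.p6 tables (20665 coding and 15919 noncoding autosomal genes; 32851 windows of 27025 genes, with none on chromosome 18, whose sequences were not used here). Where windows on opposite strands overlapped, all 1627 pairs matched as reverse complements. Strand was known only for genes with a window. Shares have exact Clopper-Pearson 95% intervals, medians order-statistic intervals and differences Newcombe intervals, computed with Python 3.11.15, pandas 2.3.3 and SciPy 1.17.1. The code for overlaps and distances between genomic positions was tested on known answers, and the code for the 95% intervals was not. Peaks are not replicates, so no test was run.

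The far peaks and the gene lists were chosen with earlier results of these data known. Named by rule were the 10 strongest far peaks of the classes inside only, at noncoding genes and neither, the 5 widest, the 10 with HEB of highest H3K27ac fold, the 10 at microRNA genes of highest H3K4me3 fold, up to 10 coding genes holding 3 or more, the peaks nearest each limit, and those in or at listed genes. MicroRNA clusters within 10 kb and the Ptprs and Bmf peaks were added after their values were seen. Alternatives changed the distance, the overlap, the q-value, the width, the windows, the comparison peaks and the regions left out.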

Additional observations from a re-analysis of the deposited data

How the results depend on the processing

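No result reversed its direction under the alternatives, and the number of far peaks stayed between 2395 and 4116. Single bins of H3K4me3 width or fold did differ. At widths under 500 bp, HEB overlapped 2.24% of far and 2.88% of near peaks, and in wider bins the far share was higher. H3K27me3 was more frequent at far peaks under 500 bp (4.06% against 3.70%) and at 2000 to 5000 bp (7.54% against 5.46%). The same held at folds of 20 or more (2.01% against 1.44%), and in the remaining bins the far share was lower. No paired analysis was possible because the peak lists carry no replicate column, and for the same reason leaving out each replicate was not possible. With a limit of 2 kb from coding ends the share whose H3K27ac peak reached a coding end was 4.79% and the median H3K4me3 fold 3.37, and with 10 kb these were 0.762% and 3.06. With at least 50% of the peak covered by H3K27ac, the median H3K4me3 fold was 3.09, the median H3K27ac fold 4.33, the H3K27me3 share 3.96% and the H3K27me3 difference −0.118 points. With H3K4me3 peaks of −log10 q 5 or more, the median fold was 5.01, the noncoding share 19.1% and the share reaching a coding end 1.63%. With H3K27ac peaks of that q, the median H3K27ac fold was 4.56 and the H3K27me3 share 3.65%. The H3K27me3 share was 2.64% with H3K27me3 peaks of that q, 3.54% with 50% cover by H3K27me3 and 4.30% without chromosome ends and the chromosome 8 stretch. The noncoding share was 13.7% with a 500 bp window, 19.7% with 2500 bp, 24.2% with any overlap of a noncoding body and 4.90% without Gm and LOC genes. The HEB difference was 1.16 points weighted to width and 0.726 weighted to H3K4me3 fold, and the H3K27me3 difference was −5.04 points weighted to fold. The alternatives that weighted by fold or left out the chromosome 8 stretch, also for the classes, were chosen after seeing the data. The causes of these shifts were not tested. The HEB share lay between 2.34% and 3.36% and the share inside coding genes between 51.3% and 54.4% over their alternatives. Each list is a single combined set of peaks of unknown depth, so weak peaks near the calling limit carry an error that cannot be given.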
